A study of Mus musculus with 4 samples.

Results

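Myoc, Eya4, Gfap and Fabp7 were followed in single nuclei of the mouse brain. They are 4 of the 31053 genes counted in each of 4 libraries, and they were chosen by their levels and their co-detection in astrocyte nuclei of these same libraries, so those values are given here as a description, with no test. Nuclei were called astrocyte nuclei when they held at least 4 unique molecular identifiers (UMIs, each standing for 1 captured RNA molecule) of Slc1a3, Aqp4, Gja1 and Ntsr2 summed. This rule took 7763 of the 73782 nuclei kept, and all others were called other nuclei.

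The libraries came from male C57BL/6J mice that received an AAV9 vector into the cisterna magna, the cerebrospinal fluid space behind the cerebellum, at 4 weeks of age and gave their brains at 8 weeks. AAV-VEGF-C mice received the full-length mouse growth factor VEGF-C, which drives lymphatic vessel growth. AAV-CTRL mice received a control vector for domains 4 to 7 of soluble VEGFR3 joined to an immunoglobulin part, a stretch that does not bind the ligand. Nuclei of 5 mice were pooled in each library, and a cortex and a striatum library were made for each vector, so the libraries of 1 vector share their mice and there was 1 library per group. No difference between groups therefore has a replicate check, and every interval below is a 95% interval that covers counting error only.

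Myoc encodes myocilin, a secreted glycoprotein with an olfactomedin domain that is best known from the drainage tissue of the eye. Gfap encodes the intermediate filament protein by which astrocytes of the brain surface, white matter and scars are usually recognised. Fabp7 encodes the brain lipid-binding protein, a fatty acid carrier abundant in radial glia, and Eya4 encodes a phosphatase and transcriptional coactivator that works with DNA-binding proteins of the sine oculis family.

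The libraries held 17168 to 23724 nuclei and 63165470 to 78332657 UMIs. Of the nuclei deposited, 4.50 to 8.67% were removed as predicted doublets, with the highest share in the striatum AAV-CTRL library. The number of astrocyte nuclei was 1549 in cortex AAV-CTRL, 2052 in cortex AAV-VEGF-C, 2435 in striatum AAV-CTRL and 1727 in striatum AAV-VEGF-C, or 9.52 to 11.2% of the nuclei kept. Their median depth was 2032, 2031, 1987 and 2372 UMIs in that order, which is the order of libraries used throughout. Pairs of libraries shared 76 to 118 cell barcodes, at most 0.658% of the smaller library. Shared barcodes of this number were left in.

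The 4 genes of the astrocyte rule, whose presence the rule itself sets, stood at 1093 to 1723 UMIs per 1000000 UMIs (CPM) for the glutamate transporter Slc1a3, 343 to 734 CPM for the water channel Aqp4, 514 to 721 CPM for the gap junction gene Gja1 and 294 to 362 CPM for Ntsr2. The label was read against markers that the rule did not use, and markers of other cells were present. The 4 neuron markers summed to 2631, 2823, 1633 and 1490 CPM, and in 43.4%, 40.7%, 24.1% and 28.2% of astrocyte nuclei another panel reached at least as many UMIs as the astrocyte panel. These nuclei are called mixed nuclei below, and results that change without them are given both ways. The striatum labels also went against part of the data. Among genes of telencephalic astrocytes, Lhx2 had log2 ratios of the striatum to the cortex library of -1.12 with AAV-CTRL and -1.57 with AAV-VEGF-C, Mfge8 -0.86 and -1.26, Emx2 -1.22 and -2.12, and Slc1a2 -0.89 and -1.20. Genes of astrocytes outside the telencephalon (Agt, Slc6a11, Slc6a9, Itih3, Sparc, Irx2 and Irx5) summed to 588, 590, 2345 and 2365 CPM. The libraries are therefore named by their labels alone.

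In the mouse genome (GRCm38, GENCODE vM21), Myoc (ENSMUSG00000026697) lies on chromosome 1 from 162639155 to 162649693 on the plus strand and has 3 exons over 10539 bases. Eya4 (ENSMUSG00000010461) lies on chromosome 10 from 23102963 to 23350786 on the minus strand and spans 247824 bases, with coding transcripts of 5 to 20 exons. Gfap (ENSMUSG00000020932) lies on chromosome 11 from 102887336 to 102900912 on the minus strand with 8 or 9 exons, and Fabp7 (ENSMUSG00000019874) on chromosome 10 from 57784881 to 57788450 on the plus strand with 3 or 4 exons. Myoc is overlapped by Myocos and Gfap by Gm26668, both on the opposite strand and both counted as genes of their own. The small nuclear RNA gene Gm24655 lies inside Eya4 on the same strand and was not counted as a gene of its own, and no other gene overlaps Fabp7.

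The sequences in front of Myoc, Gfap and Fabp7 are shown because these genes were seen together in the same astrocyte nuclei. They are the bases before the RefSeq transcription start (GRCm38.p6), read 5′ to 3′ on the gene's strand. Capitals mark TATAAA in Myoc, and the pair of ATTGG runs (CCAAT on the other strand) of Fabp7, the last of them with the C that completes TTGGC. The Myoc stretch is chr1:162639000-162639149 on the plus strand, the Gfap stretch chr11:102897201-102897350 on the minus strand and the Fabp7 stretch chr10:57784773-57784880 on the plus strand.
Myoc: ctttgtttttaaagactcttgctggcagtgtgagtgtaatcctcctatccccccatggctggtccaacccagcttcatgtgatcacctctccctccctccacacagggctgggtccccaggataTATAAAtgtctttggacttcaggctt
Gfap: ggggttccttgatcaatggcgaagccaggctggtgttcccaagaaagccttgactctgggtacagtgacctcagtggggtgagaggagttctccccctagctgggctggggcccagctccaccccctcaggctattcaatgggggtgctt
Fabp7: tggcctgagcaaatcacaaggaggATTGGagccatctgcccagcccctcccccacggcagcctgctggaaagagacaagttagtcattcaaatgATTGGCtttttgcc
All 4 members matched the RefSeq promoter table, but the Eya4 stretch lies in an exon of another transcript and is not printed. The last 42 bases before the Fabp7 start lie in an exon too and were left off. The Gfap stretch lies in no exon but inside the GENCODE span of the gene, whose 5′ end is upstream at 102900912. TATAAA ended 21 bases before the start of Myoc and was found, on either strand, in 7.57% of 32851 mouse promoters of the same 150 bases. In Fabp7, CCAAT lay on the minus strand 126 to 122 and 56 to 52 bases before the start, and TTGGC, which overlaps the second, 55 to 51 bases before it. CCAAT was found in 24.5% and TTGGC in 29.0% of the promoters. The Gfap stretch held neither of these nor GGGCGG (28.6% of promoters), TTCNNNGAA (4.09%) or ACAAT (17.4%), which says only that these letters are not in this window.

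Myoc was concentrated in astrocyte nuclei. Its level there was 136 CPM (125 to 147) in cortex AAV-CTRL, 78.4 CPM (71.2 to 86.2) in cortex AAV-VEGF-C, 194 CPM (184 to 205) in striatum AAV-CTRL and 76.8 CPM (69.8 to 84.3) in striatum AAV-VEGF-C. In other nuclei its level was 4.06, 2.67, 8.01 and 2.86 CPM, or 24.2- to 33.4-fold lower. The lowest astrocyte value was thus well above the highest value in other nuclei. Astrocyte nuclei made up 9.52 to 11.2% of the nuclei of a library and held 71.1 to 72.8% of its Myoc UMIs.

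Most of the Myoc UMIs came from few nuclei. A Myoc UMI was found in 119, 112, 196 and 75 astrocyte nuclei, a share of 7.68%, 5.46%, 8.05% and 4.34%, with a mean of 3.87 to 6.47 UMIs per positive nucleus. Of the positive nuclei, 34, 42, 82 and 34 held exactly 1 Myoc UMI. With every nucleus thinned to 1000 UMIs the shares were 6.05%, 3.53%, 5.82% and 2.51%. In neurons, the class taken to lack the gene, with a median of 3934 to 4702 UMIs, the shares were 1.10%, 0.849%, 2.14% and 0.914%. The share was therefore higher in astrocyte nuclei than in the deeper neurons of every library. Per 100 UMIs of the astrocyte panel, Myoc stood at 4.64, 2.67, 6.30 and 3.00 UMIs in astrocyte nuclei and at 4.46, 3.61, 5.74 and 2.97 UMIs in neurons, with overlapping intervals in every library except cortex AAV-VEGF-C. By the class rule neurons hold fewer than 4 UMIs of the astrocyte panel, so the rule partly sets this ratio. For Gfap and Fabp7 the ratio was higher in neurons of every library. In cortex AAV-CTRL it was 12.9 against 7.56 for Gfap and 8.24 against 1.56 for Fabp7. The source of the low Myoc level of neurons was not tested, and it is not read as expression.

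Gfap was also highest in astrocyte nuclei, and by a smaller factor over other nuclei than Myoc in every library. Its level was 221 CPM (207 to 236), 199 CPM (188 to 212), 453 CPM (436 to 469) and 234 CPM (222 to 247) in astrocyte nuclei, and 11.5, 11.5, 30.1 and 16.8 CPM in other nuclei. These are folds of 13.9 to 19.2. A Gfap UMI was seen in 19.3%, 20.6%, 24.2% and 18.1% of astrocyte nuclei and in 3.68%, 3.56%, 7.87% and 5.35% of neurons. Thinned to 1000 UMIs, the astrocyte shares were 11.8%, 13.4%, 15.4% and 11.1%. Astrocyte nuclei held 58.1 to 61.5% of the Gfap UMIs of a library.

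The UMIs of Fabp7 and Eya4 were less concentrated in astrocyte nuclei than those of Myoc and Gfap. This does not by itself show expression in other cells. Fabp7 stood at 45.6 CPM (39.4 to 52.6), 32.8 CPM (28.2 to 37.9), 97.6 CPM (90.2 to 105) and 54.9 CPM (49.0 to 61.3) in astrocyte nuclei and at 8.05, 5.65, 21.0 and 11.4 CPM in other nuclei, a fold of 4.64 to 5.80. Eya4 stood at 57.4 CPM (50.4 to 65.2), 35.9 CPM (31.1 to 41.2), 44.5 CPM (39.6 to 50) and 28.3 CPM (24.1 to 33.0) in astrocyte nuclei and at 17.0, 15.6, 14.5 and 5.40 CPM in other nuclei, a fold of 2.30 to 5.25. Both were thus higher in astrocyte nuclei than in other nuclei of every library, but most of their UMIs lay outside astrocyte nuclei. Astrocyte nuclei held 30.3 to 33.0% of the Fabp7 UMIs and 16.1 to 34.4% of the Eya4 UMIs. Fabp7 was seen in 8.84%, 6.92%, 14.5% and 12.3% of astrocyte nuclei and in 2.41%, 1.94%, 5.75% and 3.81% of neurons. For Eya4 the shares were 11.5%, 7.70%, 8.42% and 6.60% of astrocyte nuclei and 4.0%, 3.83%, 2.39% and 1.56% of neurons. At 1000 UMIs per nucleus, the astrocyte shares were 3.77%, 3.14%, 7.15% and 5.19% for Fabp7 and 5.73%, 4.32%, 3.74% and 2.39% for Eya4. All 4 members were at least 2-fold higher in astrocyte nuclei than in other nuclei in all 4 libraries, as were 8.79% of the 14930 genes compared.

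**Figure D1:**
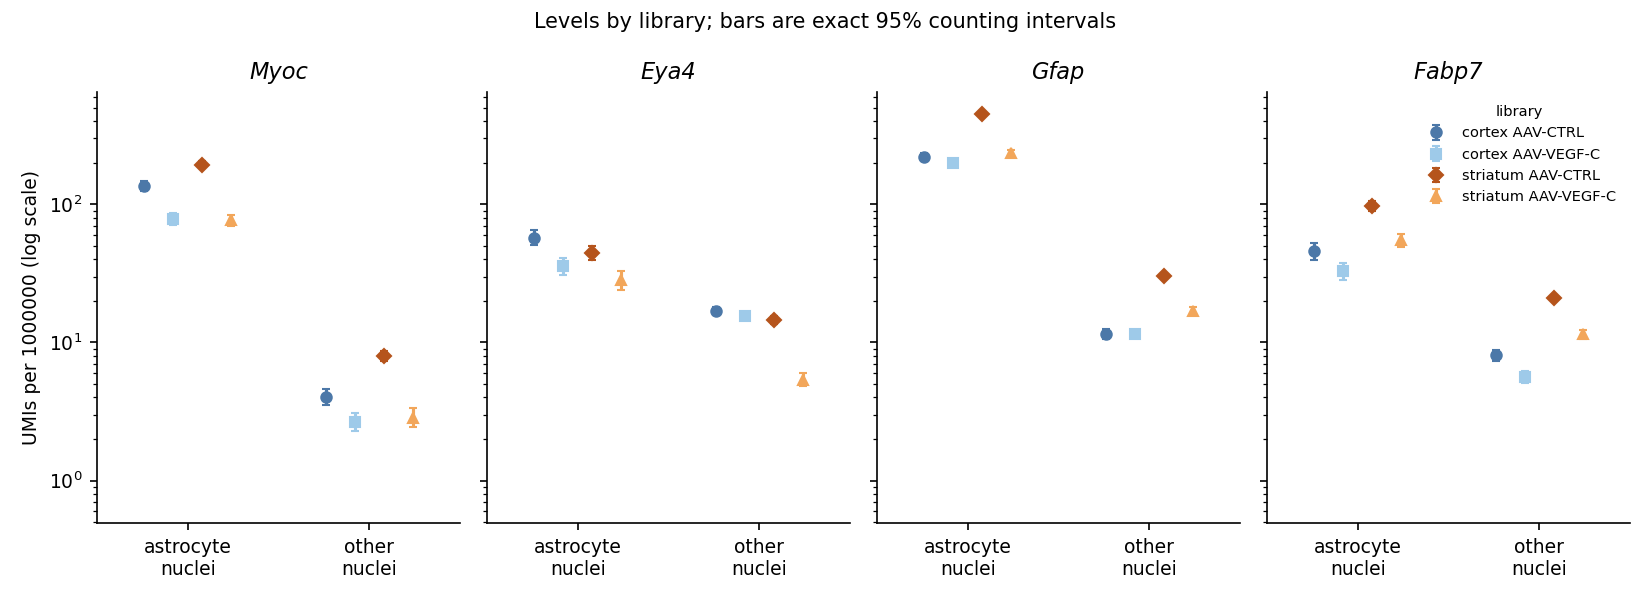
Levels of the 4 members in astrocyte nuclei and in other nuclei of each library, in CPM on a logarithmic axis, with 95% counting intervals. Every astrocyte value lies above the other nuclei of its library, with the widest gap for Myoc (24.2- to 33.4-fold) and the narrowest for Eya4 (2.30- to 5.25-fold).

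The levels also varied with how firmly a nucleus was called. In the striatum AAV-CTRL library, Myoc stood at 14.8 CPM in nuclei with 3 UMIs of the astrocyte panel, just outside the rule, at 54.8 CPM in nuclei with 4, just inside it, and at 498 CPM in nuclei with at least 10. In the other libraries the same steps were 34.0, 64.0 and 249 CPM (cortex AAV-CTRL), 21.7, 49.9 and 141 CPM (cortex AAV-VEGF-C) and 11.2, 22.1 and 153 CPM (striatum AAV-VEGF-C). Gfap went from 58.0 to 90.8 CPM at 3 panel UMIs to 311 to 1106 CPM at 10 or more. Between 405 and 754 nuclei of a library lay just outside the rule, at 3 UMIs, and 293 to 481 just inside it, at 4.

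Across the cell classes with more than 9 nuclei, Myoc and Gfap had astrocyte levels that stood clear of every other class, and Eya4 and Fabp7 did not. Summed over the 4 libraries it was 123 CPM (119 to 128) in astrocyte nuclei, and its lowest astrocyte library, at 76.8 CPM, was above the highest library of any other class (36.4 CPM). Next in order came fibroblast nuclei at 23.2 CPM (13.5 to 37.2), which rested on 17 UMIs in 317 nuclei. Unassigned nuclei (17.4 CPM), smooth muscle nuclei (14.0 CPM) and oligodendrocytes (7.86 CPM) followed. At the low end were GABAergic neurons at 2.83 CPM (2.42 to 3.29) and glutamatergic neurons at 2.69 CPM (2.39 to 3.03), whose intervals overlapped. Neurons were called GABAergic when they held more Gad1 and Gad2 UMIs than Slc17a7 and Slc17a6 UMIs, and glutamatergic when it was the reverse.

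The Gfap order had astrocyte nuclei first at 288 CPM (281 to 295), above every class of more than 9 nuclei. Smooth muscle nuclei followed at 105 CPM (76.7 to 141), then pericytes at 75.4 CPM (57.0 to 97.9), with overlapping intervals. Ependymal nuclei, the ciliated lining cells of the ventricles, had 57.0 CPM (35.8 to 86.4). Glutamatergic neurons came last at 9.95 CPM. Olfactory ensheathing nuclei, which are known to carry both Gfap and Fabp7, numbered 9 and held 14 Gfap UMIs and 11 Fabp7 UMIs, too few for a place in the order.

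For Fabp7, astrocyte nuclei at 60.3 CPM (57.1 to 63.6), fibroblast nuclei at 52.0 CPM (36.8 to 71.3) and oligodendrocyte precursors at 44.1 CPM (38.8 to 50) came first among the named classes of more than 9 nuclei. In oligodendrocyte precursors, which are known to carry Fabp7, the 4 libraries had 42.7, 38.5, 42.6 and 50.7 CPM. Since the astrocyte libraries ran from 32.8 to 97.6 CPM, the order of these 3 classes was within the spread of libraries. Neurons stood at 8.93 CPM (GABAergic) and 6.08 CPM (glutamatergic).

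Eya4 did not have its highest level in astrocyte nuclei. Fibroblast nuclei had 80.7 CPM (61.4 to 104), choroid plexus nuclei 69.0 CPM (49.9 to 92.9) and microglia 56.2 CPM (47.8 to 65.7), above the 40.5 CPM (37.9 to 43.3) of astrocyte nuclei. The ranges over the libraries of these 4 classes overlapped, and the fibroblast range began at 0 CPM. Microglia, the resident phagocytes of the brain, had 56.4, 65.8, 68.8 and 37.6 CPM in the 4 libraries, against 57.4, 35.9, 44.5 and 28.3 CPM in astrocyte nuclei. The microglial value was thus higher in 3 of 4 libraries, and the difference in cortex AAV-CTRL was within counting error. GABAergic neurons split by label, with 46.8 and 41.7 CPM in the cortex libraries and 9.03 and 4.65 CPM in the striatum libraries. Glutamatergic neurons had 6.40, 6.41, 4.13 and 2.01 CPM. Neurons together held 67.9% and 72.8% of the Eya4 UMIs of the cortex libraries and 32.7% and 36.9% of those of the striatum libraries. Per 100 astrocyte-panel UMIs, Eya4 stood at 1.11 to 1.96 UMIs in astrocyte nuclei, 5.90 to 24.6 in neurons and 15.2 to 22.4 in microglia, a ratio that the class rule partly sets.

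**Figure D2:**
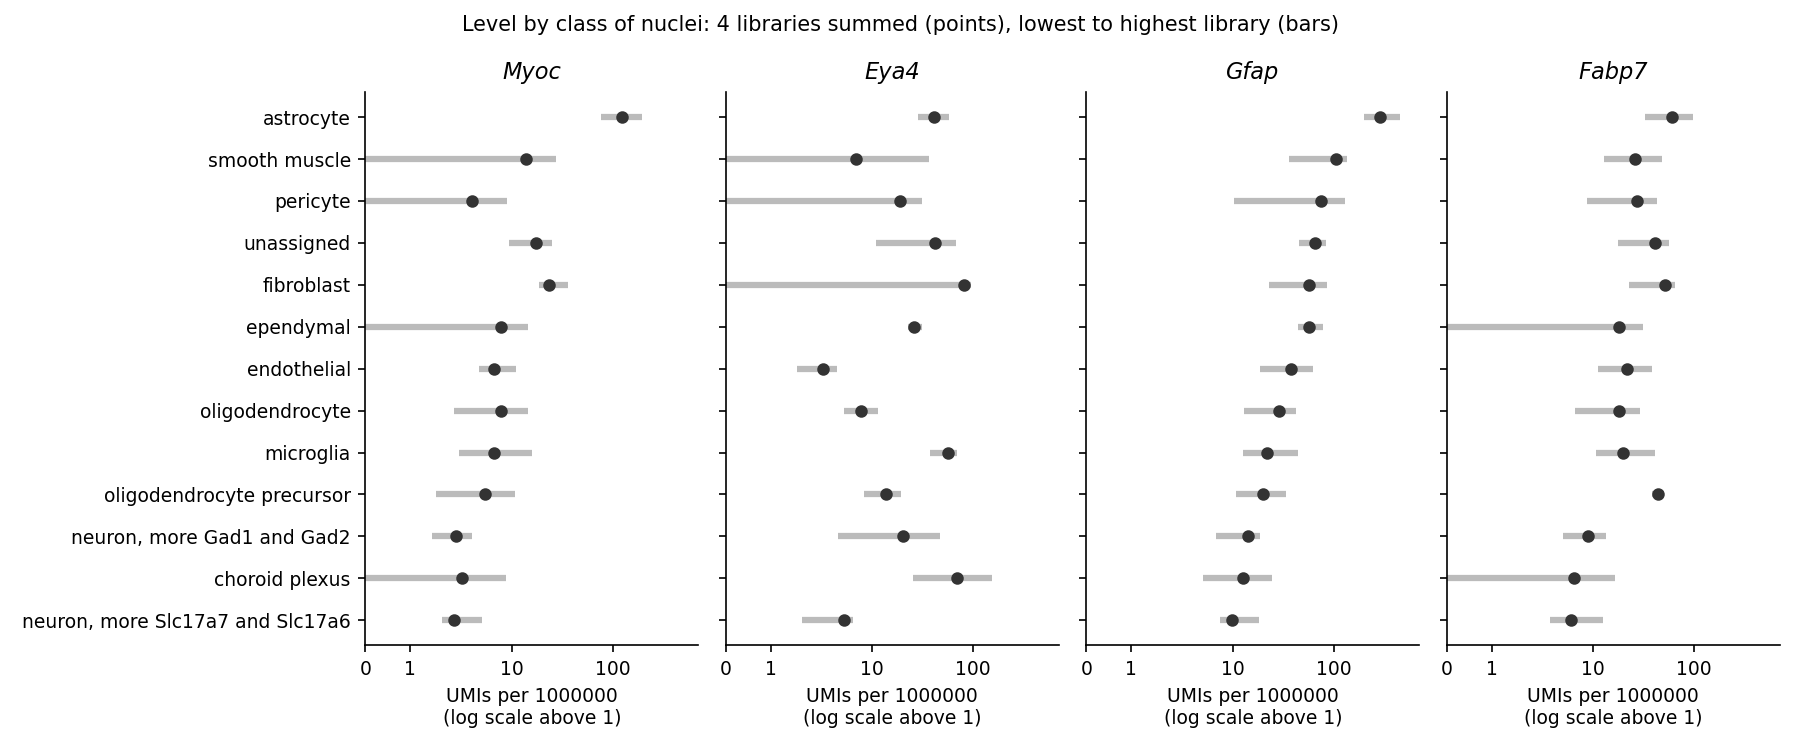
Levels of the 4 members by cell class, in CPM on an axis that is logarithmic above 1. Points are the 4 libraries summed and bars run from the lowest to the highest library. For Myoc the astrocyte bar (76.8 to 194 CPM) does not meet any other, whereas for Eya4 fibroblast, choroid plexus and microglial points lie above the astrocyte point of 40.5 CPM.

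Within astrocyte nuclei, most nuclei with Myoc also held Gfap. Of the nuclei with a Myoc UMI, 84 of 119, 79 of 112, 143 of 196 and 55 of 75 also held a Gfap UMI, that is 70.6%, 70.5%, 73.0% and 73.3%. Of the nuclei without Myoc, 15.0%, 17.7%, 19.9% and 15.6% held Gfap. The share was thus more than 3 times higher beside Myoc in every library. Median depth with against without Myoc was 1949 against 2036 UMIs, 2173 against 2024, 2294 against 1976 and 2562 against 2364 UMIs. It was thus higher with Myoc in every library except cortex AAV-CTRL. On average the nuclei with Myoc were deeper in all libraries. In striatum AAV-CTRL, 196 nuclei with Myoc had 758668 UMIs and 2239 without had 5776987. Thinned to 1000 UMIs, Gfap was found in 60.2%, 56.9%, 67.1% and 72.1% of nuclei with Myoc and in 8.66%, 11.8%, 12.2% and 9.50% of those without. With mixed nuclei left out the shares were 76.9%, 79.7%, 75% and 75.4% against 14.9 to 20.7%. The pairing was therefore present at equal depth and without mixed nuclei in every library.

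In the other direction the pairing was partial. A Myoc UMI was found in 28.1%, 18.7%, 24.3% and 17.6% of the nuclei with Gfap and in 1.41 to 2.87% of those without. Most nuclei with a Gfap UMI thus held no Myoc UMI at this depth, which limits nuclei with a UMI and not nuclei that express the gene.

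Fabp7 and Eya4 were also seen more often beside Myoc. Fabp7 was found in 26.9%, 24.1%, 44.9% and 44.0% of nuclei with Myoc against 7.34%, 5.93%, 11.8% and 10.9% of those without. Eya4 was found in 33.6%, 17.9%, 23.0% and 18.7% against 9.65%, 7.11%, 7.15% and 6.05%. The Fabp7 share beside Myoc was higher in the striatum libraries than in the cortex libraries, whereas the highest Eya4 share was in cortex AAV-CTRL. At 1000 UMIs per nucleus, Fabp7 stood at 14.0%, 13.9%, 32.1% and 37.2% with Myoc and 3.12%, 2.75%, 5.60% and 4.36% without, and Eya4 at 20.4%, 11.1%, 8.57% and 9.30% with Myoc and 4.78%, 4.07%, 3.44% and 2.21% without. Beside Gfap, Fabp7 was found in 17.1%, 13.3%, 27.0% and 26.8% of nuclei against 6.88%, 5.28%, 10.5% and 9.12% without Gfap.

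Eya4 was also paired with Fabp7 and Gfap. Fabp7 was found in 16.9%, 11.4%, 20.5% and 21.9% of nuclei with Eya4 and in 7.80%, 6.55%, 13.9% and 11.7% of those without. Gfap was found in 38.2%, 36.1%, 37.6% and 32.5% of nuclei with Eya4 against 16.8%, 19.3%, 23.0% and 17.1% without. In all 6 pairs the share was higher with the partner in every library, also at 1000 UMIs per nucleus. Nuclei with Eya4 were deeper on average than those without. In striatum AAV-VEGF-C, 114 of 1727 astrocyte nuclei held an Eya4 UMI and had 775426 UMIs, and the rest had 4981408. The lowest Gfap ratio by Eya4 was smaller when thinned, as given in the last section.

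The co-detection rose with the number of Myoc UMIs. Over the 4 libraries, 7261 astrocyte nuclei held 0, 192 held 1, 156 held 2 to 4 and 154 held 5 or more Myoc UMIs. A Gfap UMI was found in 17.4%, 49.0%, 78.2% and 94.2% of them in that order. In the nuclei with 5 or more Myoc UMIs, Gfap was found in 90.2%, 95.7%, 95.2% and 96.3% in the 4 libraries, so nearly all of these nuclei held both genes wherever they came from. Fabp7 was found in 9.14%, 19.8%, 28.2% and 63.6%, and Eya4 in 7.38%, 13.0%, 25% and 35.7%. The level of Gfap went from 123 CPM through 551 and 1302 to 3850 CPM over the same steps. Median depth was 2086, 2161, 1944 and 2787 UMIs, so the highest step was also the deepest. Its 154 nuclei held 77.0% of all Myoc UMIs of astrocyte nuclei.

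The genes of the astrocyte rule did not all rise over these steps. Aqp4 went from 406 CPM through 923 and 1607 to 2493 CPM, whereas Slc1a3 went from 1464 CPM through 1078 and 799 to 816 CPM. The 4 fibroblast markers summed to 231, 172, 232 and 558 CPM over the steps, and their part in the co-detection was not tested. Neuron markers summed to 1381 CPM in the highest step and 2106 CPM in nuclei without Myoc, so the astrocyte nuclei richest in Myoc had less neuronal RNA.

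**Figure D3:**
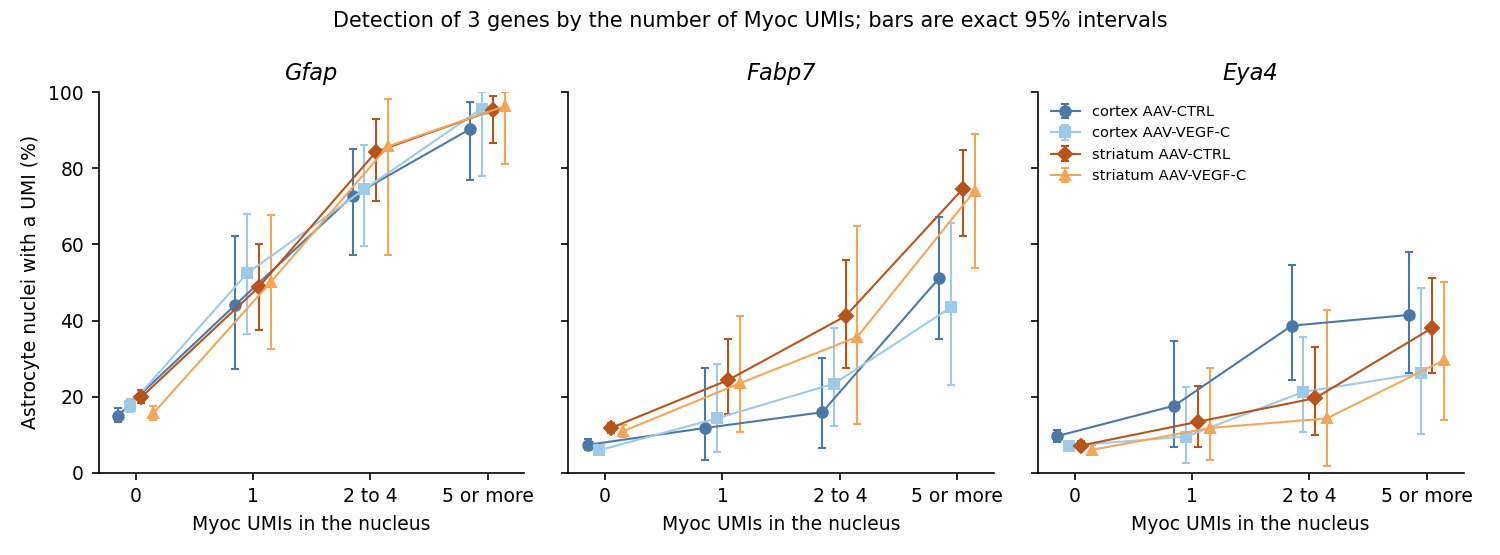
Percent of astrocyte nuclei with a UMI of Gfap, Fabp7 or Eya4, by the number of Myoc UMIs in the nucleus, for the 4 libraries with 95% intervals. The Gfap share climbs in every library to between 90.2% and 96.3% at 5 or more Myoc UMIs, and Fabp7 reaches 43.5 to 74.6%.

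All 4 members were found together in 16, 5, 26 and 7 astrocyte nuclei. At least 3 were found in 3.23%, 1.90%, 4.11% and 2.61% of astrocyte nuclei and in 0.0883%, 0.0351%, 0.104% and 0.0468% of other nuclei. Myoc, Gfap and Fabp7 were found together in 27, 23, 79 and 33 astrocyte nuclei. The majority of astrocyte nuclei, 61.4 to 69.5%, held none of the 4 members.

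A single nucleus stood apart. It lay in the striatum AAV-CTRL library, had 35773 UMIs and held 321 UMIs of the astrocyte panel, against 66 of the next panel. It held 237 Myoc UMIs, or 18.7% of those in the astrocyte nuclei of its library, 446 Gfap UMIs (15.1%), 45 Fabp7 UMIs (7.05%) and 3 Eya4 UMIs. No other library had an astrocyte nucleus with more than 51 Myoc UMIs. Without it, Myoc in that library stood at 159 in place of 194 CPM, Gfap at 386 in place of 453 CPM and Fabp7 at 91.2 in place of 97.6 CPM. The astrocyte nucleus richest in Eya4 of each library held 8, 12, 8 and 20 Eya4 UMIs and 0 Myoc UMIs. These nuclei had 22, 36, 119 and 6 UMIs of the astrocyte panel, against 144, 220, 36 and 37 of the next panel. All but that of striatum AAV-CTRL were thus mixed nuclei.

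The genes most enriched in nuclei with a Myoc UMI were searched over the whole table. Of 7768 genes with at least 100 UMIs in the astrocyte nuclei, 0.399% (31 genes) were at least 2-fold higher with Myoc than without in all 4 libraries, and 3 of them were the other members. Gfap led with 9.48- to 23.5-fold, Fabp7 came second with 4.75- to 7.32-fold, and Eya4 was 20th at log2 ratios of 1.14 to 1.72. The members were chosen for this co-detection, so nothing is read from their places.

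Beyond the members, the genes most like Myoc were C4b, Disp3, Padi2, Fxyd6, Aqp4, Adamts9, Fbxo2 and Fxyd1, ranked by their lowest log2 ratio over the libraries. C4b, a complement component made by reactive glia, stood at 272, 173, 260 and 204 CPM with Myoc and at 31.2, 36.6, 46.4 and 42.1 CPM without it, log2 ratios of 2.25 to 3.13. Padi2, an enzyme that converts arginine residues of proteins to citrulline, had ratios of 2.02 to 2.74. The regulators of the sodium pump Fxyd6 and Fxyd1 had 1.96 to 2.79 and 1.59 to 2.56. The secreted metalloproteinase Adamts9 had 1.77 to 2.05, the F-box gene Fbxo2 1.73 to 2.78 and Disp3 2.18 to 3.05. Aqp4, at 1.91 to 2.34, is 1 of the 4 genes of the astrocyte rule and was not independent of it. All 10 leading genes were still at least 2-fold higher in every library with mixed nuclei left out.

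Of the genes compared, 9 were at least 2-fold lower with Myoc in all 4 libraries. They included Slc7a10, an amino acid transporter of grey matter astrocytes, at log2 ratios of -2.55 to -1.75. Hif3a (-1.86 to -1.48) and the glutamate receptor subunit Grin2c (-2.21 to -1.02) were others.

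Gene lists were set beside these rankings. Of 9 genes of surface and fibrous astrocytes that could be compared, 5 (Gfap, Id1, Id3, Tnc and Aqp4) were at least 2-fold higher with Myoc in all 4 libraries and none was lower, with a median log2 ratio of 1.30 against -0.01 over all genes. Of 7 reactive astrocyte genes, 2 (Gfap and C4b) were higher, with a median of 0.81. Of 13 radial glia genes, 2 (Fabp7 and Tnc) were higher, with a median of 0.28. Among 20 homeostatic astrocyte genes, Aqp4 and Aldoc were higher, Slc7a10 was lower, and the median was 0.06. Of these astrocyte lists, the homeostatic list was closest to all genes and the surface list farthest from them. Gfap and Fabp7 were chosen for this co-detection, and Aqp4 is a gene of the astrocyte rule. They enter these counts and medians, so nothing is read from the order of the lists. Of the markers of other cells, 0 of 3 ependymal (median -1.27), 0 of 4 neuron (-0.24) and 0 of 3 fibroblast markers (0.70) passed 2-fold.

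Around Gfap, 0.232% of the genes (18) were at least 2-fold higher in all 4 libraries. Myoc led with log2 ratios of 4.29 to 5.51, followed by C4b (2.29 to 2.72), Fxyd1 (1.55 to 2.11), Padi2 (1.5 to 1.79) and Aqp4 (1.48 to 1.66). The Gfap and Myoc lists shared 10 genes, 55.6% of the former and 32.3% of the latter. Vim, the filament partner of Gfap, was among the genes higher with Gfap, as were Id3 and Tnc.

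Around Fabp7, 0.116% of the genes (9) passed. Myoc (2.62 to 3.90) and Gfap (1.75 to 3.31) led, followed by Dbi (1.23 to 1.59), an acyl-CoA binding protein, Padi2 (1.18 to 1.93) and the calcium-binding protein gene S100a6 (1.14 to 1.36). Of these 5, 3 still passed with mixed nuclei left out. The Fabp7 list shared 4 genes with the Myoc list, 44.4% of the former and 12.9% of the latter.

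Eya4 kept other company. Around Eya4, 2.12% of the genes (165) were at least 2-fold higher in all 4 libraries, led by Unc5cl (2.64 to 3.09) and by genes of motile cilia or of the ependymal type, Ccdc170 (2.57 to 3.22), Ttc29 (2.51 to 3.11), Cfap206 (2.49 to 3.15) and Wdr49 (2.48 to 3.27). All 3 ependymal markers that could be compared were higher, with a median of 2.70. The 132 astrocyte nuclei in which the ependymal panel led were 1.70% of all astrocyte nuclei and held 10.5% of the Eya4 UMIs, against 0.406% of the Myoc UMIs. In those nuclei Eya4 stood at 67.7 CPM and Myoc at 7.92 CPM. With mixed nuclei left out, the Eya4 list was 3 genes long: Myoc (2.68 to 3.04), Gfap (1.28 to 2.50) and C4b (1.09 to 2.11). The 5 leading genes were then under the limit of 100 UMIs and were not compared, so that whether they remain higher beside Eya4 is not known. Of the 31 genes beside Myoc, 19 passed again without mixed nuclei, when 36 passed in all.

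**Figure D4:**
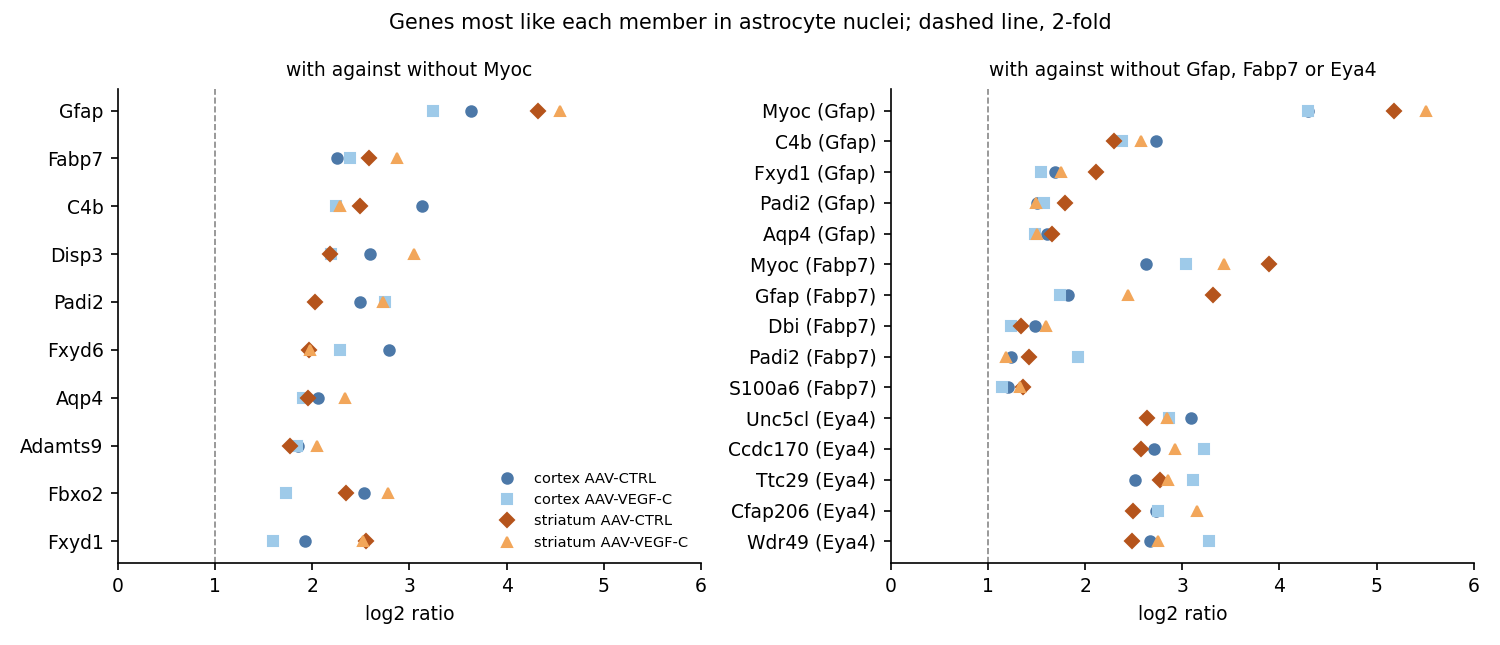
Log2 ratio of the level in astrocyte nuclei with against without a UMI of Myoc (10 genes), Gfap, Fabp7 or Eya4 (5 genes each), with 1 point per library and a dashed line at 2-fold. Gfap has the highest ratios beside Myoc (3.24 to 4.55). Unc5cl leads beside Eya4, followed by genes of motile cilia or of the ependymal type. None of these 5 genes could be compared with mixed nuclei left out.

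Astrocyte nuclei that no other panel led, 66.8% of all, held 82.7% of the Myoc, 81.1% of the Gfap, 73.7% of the Fabp7 and 59.8% of the Eya4 UMIs. In them Myoc stood at 195 CPM, Gfap at 448 CPM, Fabp7 at 85.1 CPM and Eya4 at 46.5 CPM. In the 24.1% led by neuron markers, again summed over the libraries, the values were 54.1, 104, 29.5 and 32.3 CPM. Within each library, Myoc, Gfap and Fabp7 were lower in the nuclei led by neuron markers. Eya4 stood at 73.2, 42.0, 49.3 and 30.1 CPM in nuclei that no other panel led and at 36.3, 31.9, 28.6 and 31.7 CPM in those led by neuron markers, so it was lower in 3 of 4 libraries.

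The vectors were compared within each region to ask how astrocytes of mice given AAV-VEGF-C differ from those given AAV-CTRL. Myoc, Eya4 and Fabp7 had lower levels with AAV-VEGF-C in both regions, and Gfap in the striatum libraries. Myoc stood at 136 against 78.4 CPM in the cortex libraries, a log2 ratio of -0.79 (-0.97 to -0.61), and at 194 against 76.8 CPM in the striatum libraries, a ratio of -1.34 (-1.50 to -1.18). Fewer positive nuclei went with it, 7.68% against 5.46% and 8.05% against 4.34%, and this gap was also present at 1000 UMIs per nucleus. Eya4 had ratios of -0.68 (-0.96 to -0.40) and -0.65 (-0.94 to -0.37), close to each other in the 2 regions. Fabp7 had -0.48 (-0.78 to -0.18) and -0.83 (-1.03 to -0.63).

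Gfap differed between regions in this comparison. In the cortex libraries it stood at 221 and 199 CPM, a log2 ratio of -0.15 (-0.28 to -0.02), and its share of positive nuclei went the other way, 19.3% against 20.6%, so no direction is read there. With a limit of 2 astrocyte UMIs the cortex ratio was -0.01. In the striatum libraries it stood at 453 against 234 CPM, a ratio of -0.95 (-1.05 to -0.86), with 24.2% against 18.1% positive nuclei. Without the nucleus richest in Gfap of each library the striatum ratio was -0.82. Whether the regions differ in their response was not tested, since there was 1 library per group.

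Against all genes, these ratios stood as follows. In the cortex libraries 2 of the 4 members (Myoc and Eya4) were at least 1.5-fold lower with AAV-VEGF-C, as were 2.16% of 11219 genes. In the striatum libraries all 4 were, as were 0.633% of 12155 genes. With every nucleus thinned to 1000 UMIs, Myoc alone passed 1.5-fold in the cortex libraries (Eya4 had -0.48), and Myoc and Eya4 in the striatum libraries, where Gfap had -0.45 and Fabp7 -0.39. The share of all genes past 1.5-fold was not computed at the thinned depth. With a limit of 8 astrocyte UMIs, Eya4 had -0.46 in the cortex libraries. The medians over all genes, at the deposited depth, were 0.00 and 0.01. Since the members were chosen with these levels known, nothing is read from the counts.

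The ratios were split by whether a nucleus held Myoc. Among astrocyte nuclei with a Myoc UMI, Myoc itself had ratios of -0.31 and -0.15, Gfap -0.15 and -0.14, and Fabp7 -0.27 and -0.29. In striatum AAV-CTRL, 1 nucleus held 237 of the 1269 Myoc, 446 of the 2141 Gfap and 45 of the 281 Fabp7 UMIs behind these ratios. No direction is therefore read from the striatum values of nuclei with Myoc. Among astrocyte nuclei without a Myoc UMI, Gfap had 0.24 (0.06 to 0.43) in the cortex and -0.37 (-0.53 to -0.22) in the striatum libraries, and Fabp7 had -0.40 and -0.57. The Gfap difference of the striatum libraries was thus smaller within each kind of nucleus than over all astrocyte nuclei, and the cortex values had opposite signs. Eya4 had -1.11 and -0.69 with Myoc and -0.51 in both regions without.

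Neurons moved with the astrocyte nuclei for Myoc, Gfap and Fabp7. In neurons, Myoc had ratios of -0.56 and -1.42, Gfap -0.07 and -0.69, Fabp7 -0.52 and -0.87 and Eya4 -0.10 and -1.07. The Myoc level of other nuclei had ratios of -0.61 (-0.90 to -0.32) and -1.48 (-1.75 to -1.23). The low Myoc, Gfap and Fabp7 levels of neurons thus followed the levels in astrocyte nuclei of the same library. Oligodendrocytes had -1.75 (Myoc), -0.79 (Gfap) and -1.07 (Fabp7) in the striatum libraries. In the cortex libraries they had -1.04 for Fabp7, but 1.02 (-0.42 to 2.68) for Myoc and 0.73 (0.06 to 1.42) for Gfap. Those 2 ratios rested on 15 against 6 Myoc UMIs and 59 against 29 Gfap UMIs.

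Other features of the libraries moved with the vector as well. Nuclei of the fibroblast class, which come from the meninges and vessel walls, numbered 23, 20, 216 and 58, so that the striatum AAV-CTRL library, which had the highest Myoc, Gfap and Fabp7 levels, also had the most. Within astrocyte nuclei the 4 fibroblast markers summed to 145, 164, 311 and 306 CPM so that they were close between the vectors in the striatum libraries. All 4 ependymal markers were lower with AAV-VEGF-C in astrocyte nuclei of the cortex libraries, summed 546 against 304 CPM, median -0.74, and summed to 358 against 417 CPM in the striatum libraries. Their part in the ratios was not tested. Aqp4 had ratios of -0.28 and -0.54 and C4b -0.22 and -0.50. With mixed nuclei left out, Myoc had a striatum ratio of -1.08, and Gfap had -0.30 and -0.83. The Myoc UMIs per positive nucleus were 4.75, 3.87, 6.47 and 5.89. With AAV-VEGF-C the share of positive nuclei was lower in both regions, and their mean UMIs were lower in the cortex libraries. The striatum AAV-CTRL mean includes the nucleus with 237 of its 1269 Myoc UMIs, so no direction is read from the striatum means.

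**Figure D5:**
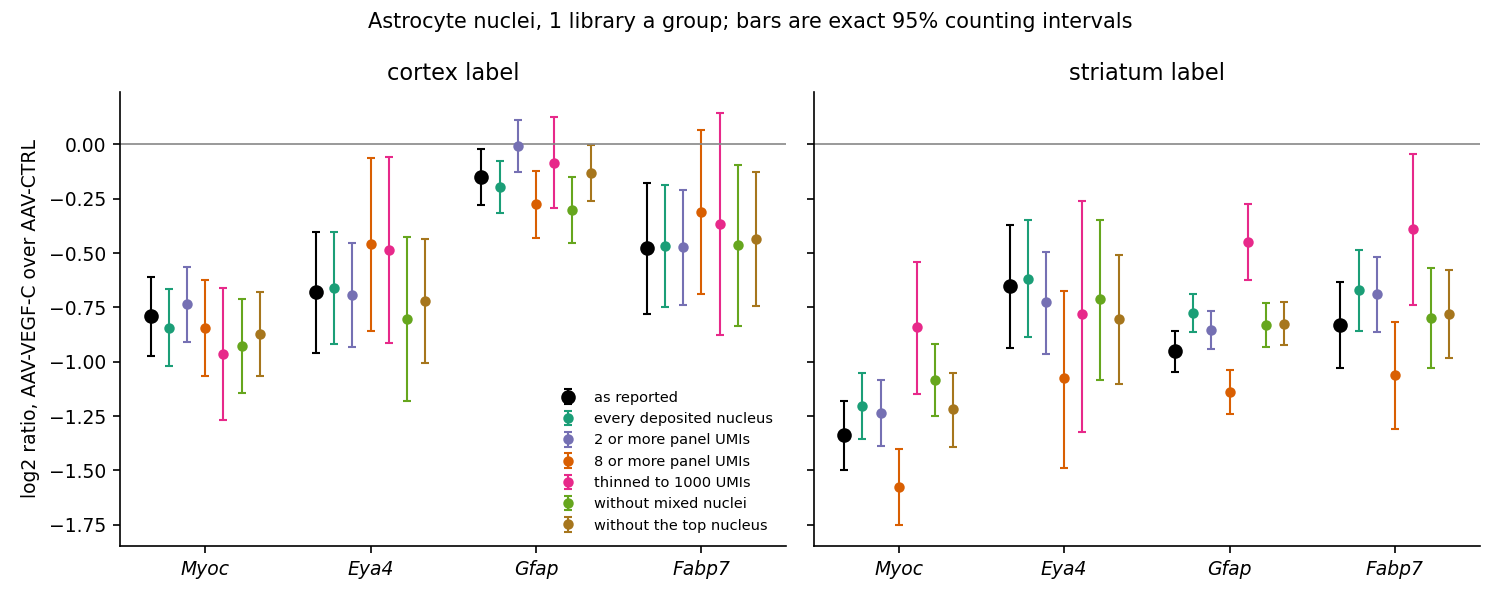
Log2 ratio of AAV-VEGF-C over AAV-CTRL in astrocyte nuclei for each member, in the cortex and striatum libraries, as reported and under 6 alternatives, with 95% counting intervals. All 8 ratios stay at or below 0 in each alternative, from -0.01 for cortex Gfap at a limit of 2 UMIs to -1.58 for striatum Myoc at a limit of 8 UMIs.

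By region label, Fabp7 was higher in the astrocyte nuclei of the striatum libraries and Eya4 lower, and Gfap was higher with AAV-CTRL. With AAV-CTRL, the log2 ratio of the striatum to the cortex library was 1.03 (0.93 to 1.14) for Gfap and 1.10 (0.86 to 1.34) for Fabp7. With AAV-VEGF-C, Gfap had 0.23 (0.12 to 0.35) and Fabp7 0.74 (0.48 to 1.02). Eya4 had -0.37 (-0.62 to -0.11) and -0.34 (-0.65 to -0.03). For Gfap with AAV-VEGF-C the share of positive nuclei went the other way, 20.6% in the cortex and 18.1% in the striatum library, and the ratio was 0.050 at a limit of 2 astrocyte UMIs, so no direction is read there. At a limit of 8 astrocyte UMIs the Eya4 ratio with AAV-CTRL was -0.054. At least 1.5-fold higher in the striatum libraries were 2 of the 4 members with AAV-CTRL, against 7.11% of 11707 genes, and 1 with AAV-VEGF-C, against 8.93% of 11866 genes.

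For Myoc the region ratio depended on the vector and on the processing. It was 0.52 (0.37 to 0.66) with AAV-CTRL and -0.03 (-0.23 to 0.16) with AAV-VEGF-C. Without the nucleus richest in Myoc of each library the first value was 0.33, and with every nucleus thinned to 1000 UMIs it was -0.12. No region difference in Myoc is therefore read from these libraries.

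The region ratios of Gfap and Fabp7 were larger in nuclei that held Myoc. With a Myoc UMI, Gfap had 1.07 under both vectors and Fabp7 1.20 and 1.18. The AAV-CTRL values include the striatum nucleus that held 446 of the 2141 Gfap and 45 of the 281 Fabp7 UMIs beside Myoc. Without one, Gfap had 0.38 and -0.24 and Fabp7 0.86 and 0.69. The regions also differed in the genes of astrocytes outside the telencephalon: 6 of 6 that could be compared with AAV-CTRL and 5 of 5 with AAV-VEGF-C were at least 1.5-fold higher in the striatum libraries (medians 2.18 and 2.17), and Lhx2, Mfge8, Emx2 and Slc1a2 were lower, as given above. Their part in the region ratios of the members was not tested.

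The relatives of the members were read beside them. Of the 4 olfactomedin genes other than Myoc that could be compared, none was 2-fold higher with Myoc (median -0.17), and Olfm1 had 435, 449, 146 and 148 CPM in astrocyte nuclei. Of 5 genes of the Eya, sine oculis and Dach families, 1 (Eya4) was higher with Myoc. Eya1 had 107, 95.3, 89.2 and 61.7 CPM, with vector ratios of -0.17 and -0.53, and Eya3 had 55.5, 52.7, 56.5 and 56.3 CPM. The vector ratios of Eya4 itself, given above, were -0.68 and -0.65. Vim had 91.8, 76.8, 96.1 and 99.0 CPM, with vector ratios of -0.26 and 0.04, where Gfap had -0.15 and -0.95. Fabp5 had 111, 94.6, 110 and 125 CPM, with vector ratios of -0.24 and 0.18, where Fabp7 had -0.48 and -0.83.

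Wider astrocyte lists, which include some of the members, were read in the same way, against 2.16% of all genes lower in the cortex and 0.633% in the striatum libraries. Of the surface and fibrous genes, 0 of 12 were at least 1.5-fold lower with AAV-VEGF-C in the cortex libraries (median -0.09), and 3 of 11 in the striatum libraries (Gfap, Cd44 at -0.68 and Tnc at -0.61; median 0.02). Of the reactive genes, 0 of 10 were lower in the cortex libraries, and in the striatum libraries 2 of 14 were lower (Gfap and Cd44) and 1 higher (Hspb1 at 0.75). None of the 20 homeostatic genes passed 1.5-fold in either region, with medians of 0.01 and -0.11. Of the radial glia genes, 0 of 15 were lower in the cortex libraries and 2 of 14 (Fabp7 and Tnc) in the striatum libraries, with medians of 0.04 and -0.09.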

How the data were processed

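Nuclei were counted in 4 libraries made with the 10x 3′ v3 kit. The deposited matrices hold UMI counts for 31053 genes, raw, made by the authors with Cell Ranger (5.0.1 per the file headers, 5.1.1 per the submitters' processing notes) on mm10. Whether intronic reads were counted is not given in the sources used here. The authors' later steps in Seurat were not used. The 78728 deposited barcodes equal the number of nuclei the study gives after its filters, and all had at least 719 UMIs, above the study's limit of 200.

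Doublets were predicted with Scrublet in scanpy 1.11.5 (expected rate 8%) and removed. Classes were set by 4-gene panels, at least 4 UMIs and no tie, the astrocyte rule taking precedence. CPM is UMIs per 1000000. Intervals are exact Poisson, Clopper-Pearson or conditional binomial at 95%, and log2 ratios across genes used a pseudocount of 0.5 UMIs. Genes needed 100 UMIs to be compared. Thinning drew 1000 UMIs per nucleus and left out the 425 to 1466 nuclei per library with fewer. Groups of 1 library allow no test, and none was run. Alternatives left out mixed nuclei, moved the astrocyte limit to 2 or 8 UMIs, kept every nucleus, thinned, or raised the gene limit to 300. The genes named beside a member were the 10 (Myoc) or 5 with the highest lowest ratio over the libraries among those at least 2-fold higher in all 4; others named belong to lists or were taken from those called lower. The steps were tested on simulated data. The 4 members and the gene lists were chosen with earlier results of these data known. Python 3.11.15, numpy 2.4.6, pandas 2.3.3, scipy 1.17.1 and matplotlib 3.10.9 were used. Results that rest on an item withheld from the text are not reported here.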

Additional observations from a re-analysis of the deposited data

How the results depend on the processing

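The limits below concern 34 values recomputed under 7 alternatives, 162 recomputed values in all. Of these, 106 moved by no more than their counting interval (counts of genes, by no more than 1.5 times), 55 moved further and 1, whose interval lay off 0, changed sign. The region ratio of Myoc with AAV-VEGF-C, -0.031 with an interval across 0, was also above 0 in 4 alternatives, from 0.0027 to 0.11. The 8 vector ratios kept their sign in each alternative run, as did the 4 ratios of astrocyte over other nuclei and the 6 pairings. All values are log2 ratios unless they count genes, and the cause of a change was not tested. The lowest ratio of astrocyte over other nuclei was 4.60 for Myoc, 1.20 for Eya4, 3.80 for Gfap and 2.21 for Fabp7. No paired analysis was possible because each group had 1 library, so the labels give no replicate numbers to pair. The region ratios already set libraries of the same mice side by side, and a fit of region and vector together over the 4 libraries, with 1 residual degree of freedom, was not run.

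Without mixed nuclei, the vector ratio of striatum Myoc was -1.08 and those of Gfap -0.30 (cortex) and -0.83 (striatum). The AAV-CTRL region ratio was 0.27 for Myoc and 0.86 for Gfap, the astrocyte ratios were 5.11 (Myoc), 1.43 (Eya4), 4.43 (Gfap) and 2.58 (Fabp7), and 3 genes in place of 165 passed beside Eya4.

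At 2 astrocyte UMIs, the vector ratios of Gfap were -0.0071 and -0.85, its region ratios 0.90 and 0.050, and the AAV-CTRL region ratio of Myoc was 0.30. The astrocyte ratios were 3.91 (Myoc), 0.82 (Eya4), 3.24 (Gfap) and 1.70 (Fabp7).

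At 8 astrocyte UMIs, the striatum vector ratios were -1.58 (Myoc), -1.07 (Eya4), -1.14 (Gfap) and -1.06 (Fabp7). Region ratios were 0.82 (Myoc), -0.054 (Eya4) and 1.32 (Gfap) with AAV-CTRL and -0.67 (Eya4) and 0.46 (Gfap) with AAV-VEGF-C, the astrocyte ratios of Gfap and Fabp7 were 4.08 and 2.41, and the Gfap share with against without Myoc had a lowest ratio of 1.56 in place of 1.87.

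With every deposited nucleus kept, the astrocyte ratios were 4.34 (Myoc), 3.64 (Gfap) and 1.97 (Fabp7), the striatum vector ratio of Gfap was -0.78, its AAV-VEGF-C region ratio 0.38, and 5 genes in place of 9 passed beside Fabp7.

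Thinned to 1000 UMIs, the AAV-CTRL region ratio of Myoc changed sign to -0.12. Striatum vector ratios were -0.84 (Myoc), -0.45 (Gfap) and -0.39 (Fabp7), region ratios -0.80 (Eya4, AAV-VEGF-C) and 0.57 (Gfap, AAV-CTRL), and astrocyte ratios 3.40 (Myoc), 2.97 (Gfap) and 1.43 (Fabp7). The lowest Gfap share ratio was 2.27 by Myoc, and 0.31 in place of 0.71 by Eya4.

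With at least 300 UMIs per gene, 15 genes passed beside Myoc, 42 beside Eya4 and 10 beside Gfap, and 1.02% and 0.214% of genes were lower with AAV-VEGF-C. Leaving out the nucleus richest in the member, an alternative chosen after seeing the data, gave AAV-CTRL region ratios of 0.33 (Myoc) and 0.87 (Gfap) and a striatum vector ratio of -0.82 (Gfap).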
